A study of Mus musculus with 4 samples.

Results

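Cux2, Rgs16, Lepr, Rad51b and Klf10 are 5 of the 32285 mouse genes counted in 4 single-nucleus RNA libraries of mouse liver, and they were selected on their measured levels in hepatocytes, which were far higher in both libraries from mice on a low-protein diet (LPD) than in both from mice on the comparison diet (CD). That contrast chose them and is therefore given as a description. Each library stands for 1 group, a diet (CD or LPD) with the label control or oncogene. In the study's diets, LPD gave a smaller share of calories as protein and a larger share as carbohydrate than CD, with similar fat. By the study's methods, Bl/6 mice, male and 6 to 8 weeks old in its tumour work, ate their diet for 1 week, were then injected through the tail vein with Sleeping Beauty transposon plasmids, and stayed on the diet for 2 more weeks. The oncogene groups were injected with human c-MET and β-catenin, which integrate into the genome of some hepatocytes, and the controls with vector. How many mice went into a library is not stated. By the study's general methods, mice were fasted for 5 hours and examined at about 2 p.m. unless stated otherwise, and nothing else is stated for these livers.

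The libraries do not all match their labels. The library labelled CD control held 100 UMIs (unique molecular identifiers, each marking 1 captured RNA molecule) of the human transgenes and the one labelled CD oncogene held 0, against 0 in LPD control and 6 in LPD oncogene. Names below are therefore the names on the labels, and the direction of a difference between the CD libraries rests on labels that their transgene counts go against. Depth also followed diet: hepatocyte nuclei had a median of 5358 and 4065 UMIs in the CD libraries and of 2244 and 2278 in the LPD libraries. So did the median mitochondrial share of the nuclei kept, 2.42% and 0.983% on CD against 0.1% and 0.127% on LPD. In hepatocyte nuclei with at most 1% mitochondrial UMIs, the smallest ratio of an LPD over a CD library (log2) was 7.66 for Cux2. It was 6.20 for Rgs16, 3.95 for Lepr, 3.52 for Rad51b and 2.48 for Klf10. These ratios are of the contrast that chose the genes, and the part of the mitochondrial share was not tested. Between 18 and 40 barcodes were shared by any pair of libraries. Hepatocytes were 7155 nuclei of CD control, 9649 of CD oncogene, 7759 of LPD control and 6842 of LPD oncogene. In all 4 libraries these nuclei held the Y-linked Ddx3y at 96.8 to 117 CPM (counts per 1000000 UMIs of mouse genes) and Xist at no more than 0.824 CPM, as in males. Their Alb level, the defining hepatocyte product, was 4274 to 7398 CPM. In bulk sums such as these, fewer expressing nuclei and less RNA per nucleus cannot be told apart, so shares of nuclei are given as well. Each group is a single library, so no difference here is tested against the spread between mice, and every interval is a 95% interval for counting error only.

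The 5 genes do different work. Cux2 encodes a homeodomain transcription factor of the cut-like family which in mouse liver is a sex-biased gene, higher in females and kept low in adult males by the pulsatile pattern of growth hormone. Rgs16 encodes a regulator of G protein signalling, a GTPase-activating protein that shortens the signal of Gi and Gq alpha subunits, and in liver it is known for its rhythm and its response to feeding state and carbohydrate. Lepr encodes the leptin receptor, and liver is known to raise it in states of energy shortage and to shed it as soluble receptor. Rad51b encodes a protein of homologous recombination, which repairs DNA breaks from an intact copy. Klf10 encodes a zinc-finger repressor first known as an early TGF-β response gene, rhythmic and glucose-responsive in hepatocytes.

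Their loci have little in common. In the GENCODE annotation of GRCm38, Cux2 (ENSMUSG00000042589) lies on chr5:121856366-122050102 on the minus strand and spans 194 kb. Rgs16 (ENSMUSG00000026475) is on chr1:153740349-153745468, plus strand, and spans 5.12 kb. Lepr (ENSMUSG00000057722) is on chr4:101717404-101815352, plus strand, over 97.9 kb. Rad51b (ENSMUSG00000059060) is on chr12:79297282-79814690, plus strand, over 517 kb. Klf10 (ENSMUSG00000037465) is on chr15:38291463-38300706, minus strand, over 9.24 kb. Lepr, Rad51b and Klf10 had no other annotated gene within their bounds, while Cux2 overlapped 2 and Rgs16 overlapped 1, each an antisense gene at no more than 0.0531 CPM in hepatocytes of any library. Their lengths differ widely, and nuclear RNA includes introns, so levels are compared below between samples and cells and not between genes.

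Because the 5 genes were raised together, the 250 bases before an annotated start are shown for the 4 of them that the RefSeq table of GRCm38.p6 promoters holds; Klf10 was not among them. Where the table gave more than 1 start, the one nearest the 5′ end of the GENCODE gene was taken. For Cux2 that start lies inside the GENCODE gene, so all the Cux2 bases shown are within the gene bounds given above. The Rgs16 and Lepr bases reach slightly past the GENCODE start of their gene. Capitals mark matches, on either strand, to the GC box GGGCGG or the CCAAT box CCAAT, both common core-promoter elements. The windows are chr5:122049852-122050101 on the minus strand for Cux2, chr1:153740103-153740352 for Rgs16, chr4:101717157-101717406 for Lepr and chr12:79297032-79297281 for Rad51b, the last 3 on the plus strand.
Cux2: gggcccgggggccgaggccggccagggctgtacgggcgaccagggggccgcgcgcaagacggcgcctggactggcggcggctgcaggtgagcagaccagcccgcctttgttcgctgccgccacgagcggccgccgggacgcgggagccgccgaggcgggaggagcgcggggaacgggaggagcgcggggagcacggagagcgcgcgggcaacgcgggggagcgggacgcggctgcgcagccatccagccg
Rgs16: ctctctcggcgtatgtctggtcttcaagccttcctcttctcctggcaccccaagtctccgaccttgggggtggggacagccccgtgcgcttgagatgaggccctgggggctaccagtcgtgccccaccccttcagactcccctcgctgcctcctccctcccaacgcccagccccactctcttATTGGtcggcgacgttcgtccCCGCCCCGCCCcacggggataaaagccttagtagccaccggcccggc
Lepr: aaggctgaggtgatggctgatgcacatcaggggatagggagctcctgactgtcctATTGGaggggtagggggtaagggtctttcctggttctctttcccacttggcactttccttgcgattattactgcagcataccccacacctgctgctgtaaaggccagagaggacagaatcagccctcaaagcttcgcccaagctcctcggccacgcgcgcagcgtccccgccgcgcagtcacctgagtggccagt
Rad51b: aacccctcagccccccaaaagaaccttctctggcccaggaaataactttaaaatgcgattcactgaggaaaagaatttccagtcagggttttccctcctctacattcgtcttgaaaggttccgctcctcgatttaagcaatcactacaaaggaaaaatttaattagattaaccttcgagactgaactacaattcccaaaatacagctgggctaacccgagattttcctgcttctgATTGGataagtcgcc
The Cux2 window is 80% G or C with 40 CpG dinucleotides, the Rgs16 window 66.4% with 17, the Lepr window 58.4% with 10 and the Rad51b window 42.8% with 7, beside medians of 52.4% and 6 over 32817 promoter windows of the same length. A CCAAT box starts 68 bases before the start of Rgs16, 195 before that of Lepr and 15 before that of Rad51b, and 33.8% of all windows hold one. Rgs16 has 2 GC boxes, 47 and 42 bases before its start, that share 1 base, and 32.7% of windows hold one. None of the 4 windows held an E-box (CACGTG, in 6.02% of all windows), a D-box (TTANGTAA, 2.06%), a STAT element (TTCNNNGAA, 7.01%), a CRE (TGACGTCA, 1.55%) or its shorter form TGACG (17.7%), a C/EBP-ATF element (TTGCATCA, 0.792%), an ONECUT core (ATCAAT, 6.73%) or a TATA box (TATAAA, 12.4%). The short CRE form lies within the long one. Of the motifs searched, then, these genes shared no match among all 4 windows, and a match or its absence says only which letters stand there.

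Cux2 went from a trace to a clear signal. Its level in hepatocytes was 0.455 CPM (95% interval 0.282 to 0.696, 21 UMIs) in CD control and 0.255 CPM (0.14 to 0.429, 14 UMIs) in CD oncogene. It was 175 CPM (169 to 181, 3574 UMIs) in LPD control and 135 CPM (130 to 141, 2548 UMIs) in LPD oncogene. The smallest of the 4 ratios of an LPD over a CD library was 297-fold and the largest 684-fold. After each nucleus was thinned to 1000 UMIs, 0.0563% and 0.0437% of CD hepatocyte nuclei held a Cux2 UMI, against 15.7% and 11.9% of LPD nuclei.

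Rgs16, the G protein regulator, was at 3.17 CPM (2.67 to 3.72) in CD control and 0.949 CPM (0.709 to 1.24) in CD oncogene. In LPD control it was at 410 CPM (401 to 419), and in LPD oncogene at 182 CPM (176 to 188). The smallest ratio was 57.4-fold. Thinned shares of nuclei were 0.31% and 0.0218% on CD, and 31.7% and 16.5% on LPD. The LPD libraries lay apart from the CD libraries by far more than they lay from each other, and LPD control was the highest of the 4.

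Lepr was the gene whose CD libraries differed most from each other, at 3.30 CPM (2.79 to 3.86) in CD control and 12 CPM (11.1 to 13) in CD oncogene. On LPD the receptor reached 465 CPM (456 to 475) in LPD control and 202 CPM (196 to 209) in LPD oncogene. Its smallest ratio was 16.9-fold. The thinned shares were 0.338% and 1.02% on CD and 32.7% and 17% on LPD.

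Rad51b, the recombination gene, was already at 78.1 CPM (75.6 to 80.7) in CD control and 48.2 CPM (46.4 to 50.1) in CD oncogene. It reached 1016 CPM (1003 to 1030) in LPD control and 997 CPM (983 to 1011) in LPD oncogene, levels that differed by 0.03 on the log2 scale. The smallest ratio was 12.8-fold. Of thinned nuclei, 6.84% and 4.29% held a Rad51b UMI on CD and 47.3% and 49% on LPD.

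Klf10 changed least of the 5. Its level was 29.1 CPM (27.5 to 30.7) in CD control and 15.2 CPM (14.2 to 16.3) in CD oncogene, and 129 CPM (124 to 134) in LPD control and 143 CPM (138 to 149) in LPD oncogene. Its smallest ratio was 4.43-fold. Thinned shares were 2.9% and 1.6% on CD and 12.2% and 14.2% on LPD. No level of any of the 5 genes overlapped between diets, as their selection requires, and the share of all genes without overlap was not counted. Among 7243 genes with at least 20 CPM in 1 library and at least 100 hepatocyte UMIs, 2.68% were at least 2-fold higher in all 4 pairs with 5 CPM added to each level, and all 5 members were among these 194 genes, as their selection requires. At least 2-fold lower were 101 genes (1.39%). TMM scaling turned the balance, with 105 of 7172 genes (1.46%) higher, the 5 members among them, and 136 (1.9%) lower. Cux2, Rgs16, Lepr and Rad51b took ranks 1 to 4 by the smallest change and Klf10 rank 25. Cux2, Rgs16 and Lepr passed the filter on low levels only through the LPD libraries. The median gene itself was 0.13 to 0.25 higher on the log2 scale in an LPD than in a CD library, which TMM scaling brought to between -0.01 and 0.05.

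**Figure D1:**
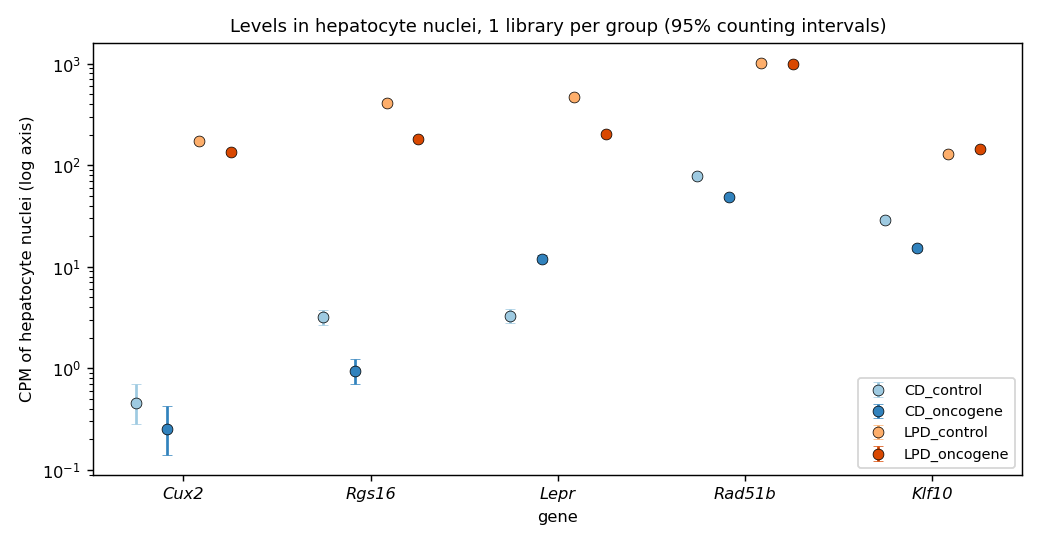
CPM in hepatocyte nuclei (log axis) of each gene in each of the 4 libraries, with bars for 95% counting intervals; bars shorter than the symbol are hidden by it. In every gene both LPD libraries (orange) stand above both CD libraries (blue), from 0.455 and 0.255 CPM to 175 and 135 CPM for Cux2 and from 29.1 and 15.2 to 129 and 143 for Klf10.

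Hepatocytes differ along the lobule, from periportal cells that make urea and glucose to pericentral cells that make glutamine. The hepatocyte nuclei of each library were ranked by their pericentral minus their periportal marker level and split into 3 zones of equal numbers. The split separated known markers: the pericentral enzyme Glul was at 175 to 1032 CPM in the central zones and at 6.57 to 26.6 CPM in the portal zones, while Cyp2f2, a periportal enzyme, was at 573.6 to 768 CPM in the portal zones and at 36.0 to 79.1 CPM in the central ones. None of the 5 genes was among the markers used for the ranking. Equal numbers need not be equal places on the lobule: the share of nuclei with more pericentral than periportal marker level (a score above 0) was 44.6% in CD control, 12.5% in CD oncogene, 13.6% in LPD control and 20.4% in LPD oncogene. Within each zone the diet difference was there for all 5 genes, at least 2-fold in all 4 pairs, beside 2.73% of all genes in the central, 2.62% in the middle and 2.95% in the portal zone.

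On LPD every one of the 5 genes was highest in the portal zone and lowest in the central zone, in both libraries. Rad51b had the steepest slope in LPD control and Lepr in LPD oncogene. Rad51b held 327 CPM (314 to 341) in the central, 1113 CPM in the middle and 1616 CPM (1586 to 1645) in the portal zone of LPD control. These zones of LPD oncogene held 503 CPM (486 to 520), 1090 CPM and 1437 CPM (1407 to 1467). The central over portal ratio of Rad51b was thus -2.30 on the log2 scale (-2.37 to -2.24) in LPD control and -1.51 (-1.57 to -1.46) in LPD oncogene. On CD it ran the other way: Rad51b was at 118 CPM in the central and 49.4 CPM in the portal zone of CD control, and at 66.5 and 32.0 CPM in those of CD oncogene. The CD ratios were 1.26 (1.14 to 1.38) and 1.06 (0.92 to 1.19). The intervals of the CD and LPD slopes are far apart and on opposite sides of 0, with 1 library behind each.

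Klf10 kept 1 direction in all 4 libraries. Its central over portal ratio on the log2 scale was -0.63 (-0.84 to -0.42) in CD control, -1.43 (-1.70 to -1.16) in CD oncogene, -1.07 (-1.22 to -0.92) in LPD control and -1.52 (-1.68 to -1.37) in LPD oncogene. Its portal zone held 31.7, 21.6, 166 and 211 CPM in the same order. The Klf10 slope was therefore present at the low CD levels and at the high LPD levels alike.

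Lepr and Rgs16 sloped toward the portal side on LPD, by amounts that differed between the LPD libraries. Lepr was at 334 CPM central and 565 CPM portal in LPD control, a ratio of -0.76 (-0.83 to -0.68), and at 85.6 and 333 CPM in LPD oncogene, a ratio of -1.96 (-2.10 to -1.83). Rgs16 was at 307 and 494 CPM in LPD control, a ratio of -0.69 (-0.76 to -0.61), and at 106 and 249 CPM in LPD oncogene, a ratio of -1.23 (-1.36 to -1.10). Their CD slopes rested on few UMIs and disagreed between the CD libraries. Lepr was higher in the portal zone of CD control, with a ratio of -1.53 (-2.20 to -0.90), and higher in the central zone of CD oncogene, with a ratio of 0.79 (0.52 to 1.07) that turned to -0.049 when the nuclei were split at a fixed score of 0. Rgs16 had a CD ratio of 1.85 (1.17 to 2.59) in CD control and of -1.08 (-2.33 to 0.07) in CD oncogene, from 10 central and 21 portal UMIs in the latter.

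Cux2 sloped the same way on LPD. It was at 132 CPM central and 205 CPM portal in LPD control, a ratio of -0.64 (-0.76 to -0.52), and at 102 and 166 CPM in LPD oncogene, a ratio of -0.71 (-0.85 to -0.56). On CD no zone held more than 8 Cux2 UMIs, so no slope could be read there. The zone boundaries are places on a continuous score, with 144 to 597 nuclei of a zone within 0.05 of one.

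**Figure D2:**
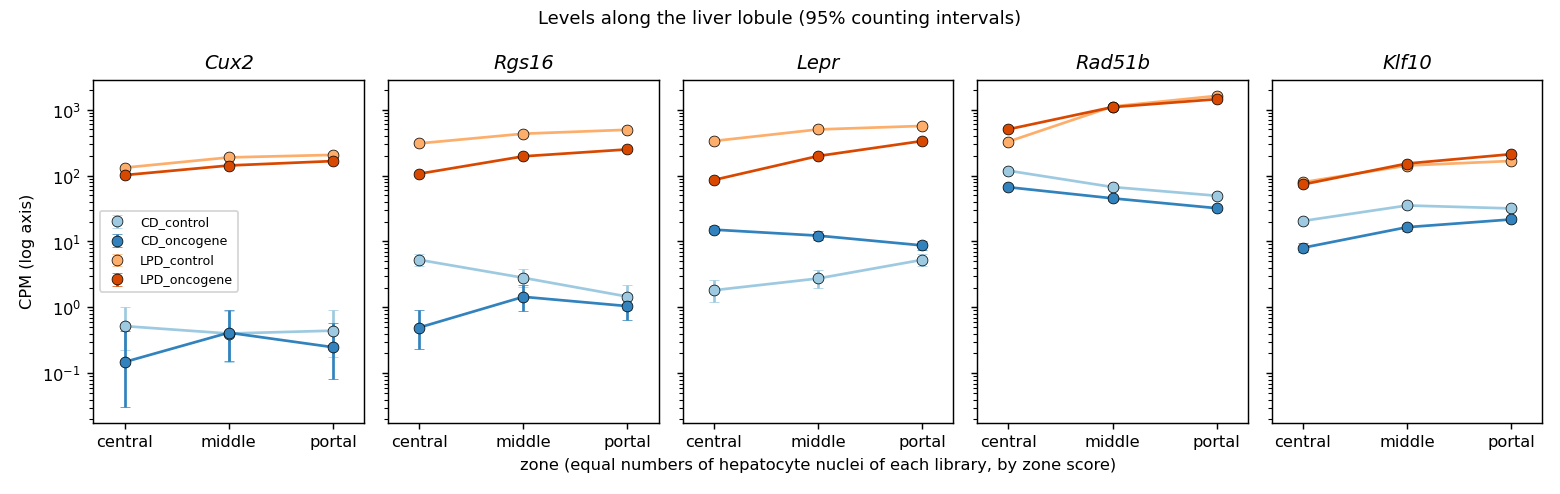
CPM (log axis) of each gene in the central, middle and portal zone of each library's hepatocyte nuclei, with 95% counting intervals. The LPD lines (orange) rise toward the portal zone in all 5 panels, while the CD lines (blue) of Rad51b fall, from 118 to 49.4 CPM and from 66.5 to 32.0 CPM.

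Differences between the injection labels were smaller than those between the diets for all 5 genes, as their selection on diet favours. Among the same 7243 genes, 2.17% were at least 2-fold higher and 1.88% at least 2-fold lower in CD oncogene than in CD control, and 1.5% higher and 0.98% lower in LPD oncogene than in LPD control, each with 5 CPM added. Of the 5 members, Lepr was in the first set, none was in the second or the next, and Rgs16 and Lepr were in the last. On the log2 scale without added CPM, LPD oncogene over LPD control was -0.37 (-0.44 to -0.29) for Cux2, -1.17 (-1.23 to -1.12) for Rgs16 and -1.20 (-1.26 to -1.15) for Lepr. For Rad51b this ratio was -0.03 (-0.06 to 0.00), and for Klf10 it was 0.16 (0.08 to 0.23). The LPD livers thus differed in Rgs16 and Lepr and hardly in Rad51b and Klf10.

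Under the CD labels the same ratio was -1.74 (-2.22 to -1.27) for Rgs16, 1.87 (1.61 to 2.13) for Lepr, -0.70 (-0.77 to -0.62) for Rad51b and -0.93 (-1.06 to -0.81) for Klf10. For Cux2 it was -0.83 (-1.92 to 0.21), from 21 and 14 UMIs. Lepr therefore moved up on CD and down on LPD, while Klf10 moved down on CD and was nearly level on LPD. Since the transgene UMIs were in the library labelled CD control, these CD directions turn over if the labels of the CD libraries were exchanged. Lepr would then move 1 way on both diets, as would Klf10 with its small LPD difference. Rgs16 would not. Neither would Cux2, whose CD interval includes no change, nor Rad51b, which was nearly level on LPD. The study states more nuclei for its CD vector group than for its CD oncogene group. Here the library labelled CD oncogene kept 12552 nuclei and the one labelled CD control 10397, so this order too is that of exchanged labels. Both numbers also lie close to the one the study states for the CD group of the opposite label. Whether they were exchanged was not tested further.

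Most LPD hepatocyte nuclei held at least 1 of the 5 genes. At 1000 UMIs per nucleus, 21% of 7232 LPD control nuclei and 29.9% of 6394 LPD oncogene nuclei had none, against 89.8% of 7107 in CD control and 93.1% of 9159 in CD oncogene. Nuclei with at least 2 of the genes were 43.6% in LPD control and 30% in LPD oncogene, and 0.253% and 0.109% in the CD libraries. All 5 were found together in 14 nuclei of LPD control and 3 of LPD oncogene. Thinning left out 48 and 490 nuclei of the CD libraries and 527 and 448 of the LPD libraries that were too shallow. A shallow hepatocyte cluster of 1388 nuclei, with a median of 1177 UMIs, held 1351 nuclei of LPD control. Rgs16, Cux2, Lepr and Rad51b were among its most raised genes. The LPD control shares and pairs without this cluster were not computed.

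The count of genes per nucleus followed the lobule. At least 2 of the genes were seen in 22% of nuclei in the central zone, 48.1% in the middle zone and 59.3% in the portal zone of LPD control. In LPD oncogene the shares were 13%, 31.5% and 44.8%. Before thinning, 45.5% and 48.5% of LPD nuclei had 2 or more Rad51b UMIs, up to 37 and 44 in 1 nucleus. The 10% of nuclei with the most Rad51b UMIs held 44.9% and 43.1% of them on LPD. For Cux2, at its lower level, the same share was 56.0% and 64.1%.

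**Figure D3:**
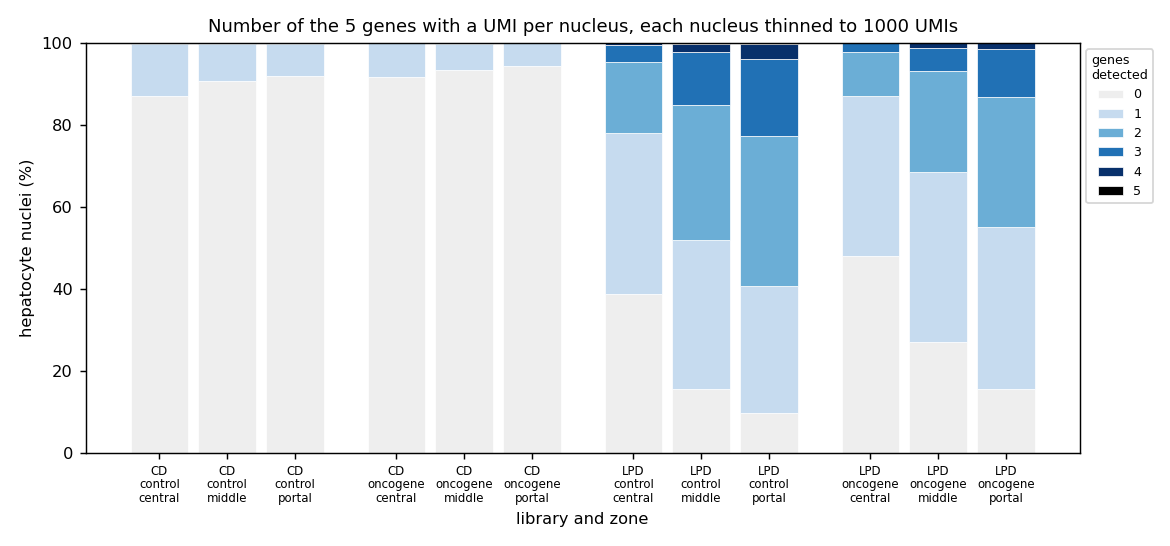
Share of hepatocyte nuclei (%) by the number of the 5 genes with at least 1 UMI, each nucleus thinned to 1000 UMIs, for each library and zone. CD bars are almost all 0 or 1 gene, while 59.3% of nuclei in the portal zone of LPD control and 44.8% in that of LPD oncogene have 2 or more.

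Pairs of the genes met in the same nucleus about as often as, or slightly more often than, the product of their shares gives. In LPD control the observed share divided by that product ran from 0.972 to 1.17 over the 10 pairs, with a median of 1.10. In LPD oncogene it ran from 0.969 to 1.25, with a median of 1.10. Rad51b and Klf10 were together in 6.78% of LPD control nuclei (product 5.78%) and 8.24% of LPD oncogene nuclei (6.97%). Lepr and Rad51b were together in 17.5% (15.5%) and 10.3% (8.34%). Rgs16 and Lepr met at the product in LPD control, 10.4% against 10.3%, and above it in LPD oncogene, 3.52% against 2.81%. Cux2 and Lepr met at 5.09% against 5.12% and at 2.02% against 2.03%, differences within the intervals. Within the portal zone the median over pairs was 1.01 and 0.975, and within the central zone 1.15 and 1.10. Thinning is a random draw, and pairs near 1 changed side with another draw or depth. Nuclei are not replicates, and these ratios describe 2 libraries.

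**Figure D4:**
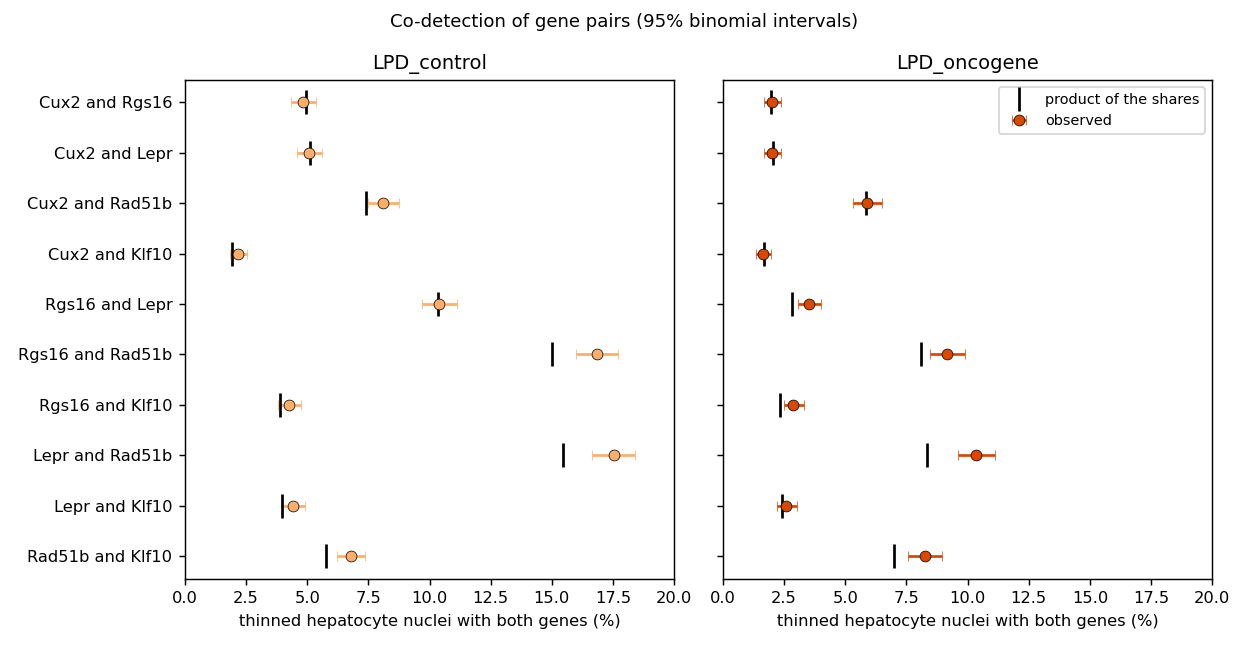
Share of thinned hepatocyte nuclei (%) with both genes of a pair (points, 95% binomial intervals) beside the product of their single shares (vertical ticks), in the LPD libraries. Points lie furthest to the right of their ticks for some pairs with Rad51b, such as 17.5% against 15.5% for Lepr and Rad51b in LPD control. Cux2 and Rad51b in LPD oncogene lie almost on theirs, at 5.88% against 5.83%. Gaps in % grow with the single shares, of which that of Rad51b is the highest.

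Other liver cells carry some of these genes, and free hepatocyte RNA has to be set beside them. In the other classes, the median of 7 hepatocyte markers stood at 16.5 to 23.2% of its hepatocyte level in sinusoidal endothelial, vascular endothelial, Kupffer and stellate nuclei of the LPD libraries, and at 29.3 to 55.4% in those of the CD libraries. A gene at or below such a share of its own hepatocyte level cannot be told apart from free RNA. Rgs16 was such a gene: on LPD it stood at 8.87 to 19.4% of its hepatocyte level in these 4 classes, and on CD it had 0 UMIs in all of them, which in sinusoidal endothelial nuclei allows up to 4.27 CPM in CD control and 6.54 CPM in CD oncogene (3 counts).

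Sinusoidal endothelial cells, the fenestrated lining of the sinusoids, held Cux2 on both diets. Their Cux2 level was 49.8 CPM (34.7 to 69.3, 35 UMIs) in CD control and 41.4 CPM (24.9 to 64.6, 19 UMIs) in CD oncogene, where hepatocytes were below 1 CPM. It was 114 CPM (82.6 to 154) in LPD control and 115 CPM (91 to 143) in LPD oncogene. Lepr was likewise present there on CD, at 88.3 CPM (67.7 to 113) and 89.3 CPM (64.1 to 121), and was at 170 CPM (131 to 217) and 138 CPM (112 to 168) on LPD. In CD livers these endothelial nuclei, not hepatocytes, thus had the higher Cux2 and Lepr levels. On LPD the order for Lepr was reversed, with hepatocytes at 465 and 202 CPM. Cux2 was also above its very low hepatocyte level in cholangiocyte, vascular endothelial, stellate and B nuclei of both CD libraries. In CD cholangiocytes, 44 and 119 nuclei, it stood at 9310 and 17192% of that level. Sinusoidal endothelial nuclei stood at 10946 and 16202% of it. Kupffer and monocyte or conventional dendritic nuclei held no Cux2 UMIs on CD.

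Of the 4 members that could be tested in sinusoidal endothelial nuclei, 1 (Cux2) was at least 2-fold higher in all 4 pairs, beside 1.85% of 4055 genes. The smallest Cux2 ratio there was 1.20 on the log2 scale (0.52 to 1.88) and the smallest Lepr ratio 0.62 (0.08 to 1.19). Cux2 in these nuclei stood at 65.4 and 84.7% of its hepatocyte level on LPD, where the hepatocyte markers stood at 23.2 and 16.5%. How much of the LPD rise in endothelial nuclei is free hepatocyte RNA was not tested. A cluster of its own holds most of this class in CD control and LPD control, and another in CD oncogene and LPD oncogene.

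Vascular endothelial nuclei had the highest Lepr level outside hepatocytes in 3 of the 4 libraries, at 444 CPM (278 to 672, 22 UMIs) in CD control, 73.7 CPM (23.9 to 172, 5 UMIs) in CD oncogene, 510 CPM (366 to 692, 41 UMIs) in LPD control and 273 CPM (182 to 395, 28 UMIs) in LPD oncogene. Only 35 to 102 nuclei of a library were in this class. Kupffer cells, the resident macrophages, had Lepr at 8.89 CPM (2 UMIs) and 34.0 CPM on CD and at 119 CPM and 150 CPM on LPD, and Rad51b at 62.2, 40.8, 228 and 145 CPM. Both members that could be tested in Kupffer nuclei were at least 2-fold higher in all 4 pairs, beside 1.75% of 3193 genes. Rad51b there stood at 22.4 and 14.5% of its hepatocyte level on LPD, where the hepatocyte markers stood at 21.6 and 16.8%. Lepr stood at 25.7% in LPD control and 74.3% in LPD oncogene, where a cluster that is almost wholly of that library holds most Kupffer nuclei.

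Rad51b was highest in dividing cells. The proliferating cluster, whose hepatocyte markers were at 78.6 to 92.6% of the hepatocyte level, held Rad51b at 623 CPM (540 to 715) in CD control and 740 CPM (658 to 829) in CD oncogene, 7.98 and 15.4 times the level of the other hepatocytes. In LPD control and LPD oncogene it held 1314 CPM (1010 to 1681) and 1673 CPM (1459 to 1910), 1.29 and 1.68 times the hepatocyte level. Proliferating non-hepatocyte nuclei had 802 and 803 CPM on CD and 2002 and 1144 CPM on LPD. Plasmacytoid dendritic nuclei had 279, 463, 816 and 531 CPM. These classes are small, with 15 to 61 nuclei a library. Hepatocytes of LPD livers outside the proliferating cluster, at 1016 and 997 CPM, thus stood above the proliferating nuclei of CD livers.

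**Figure D5:**
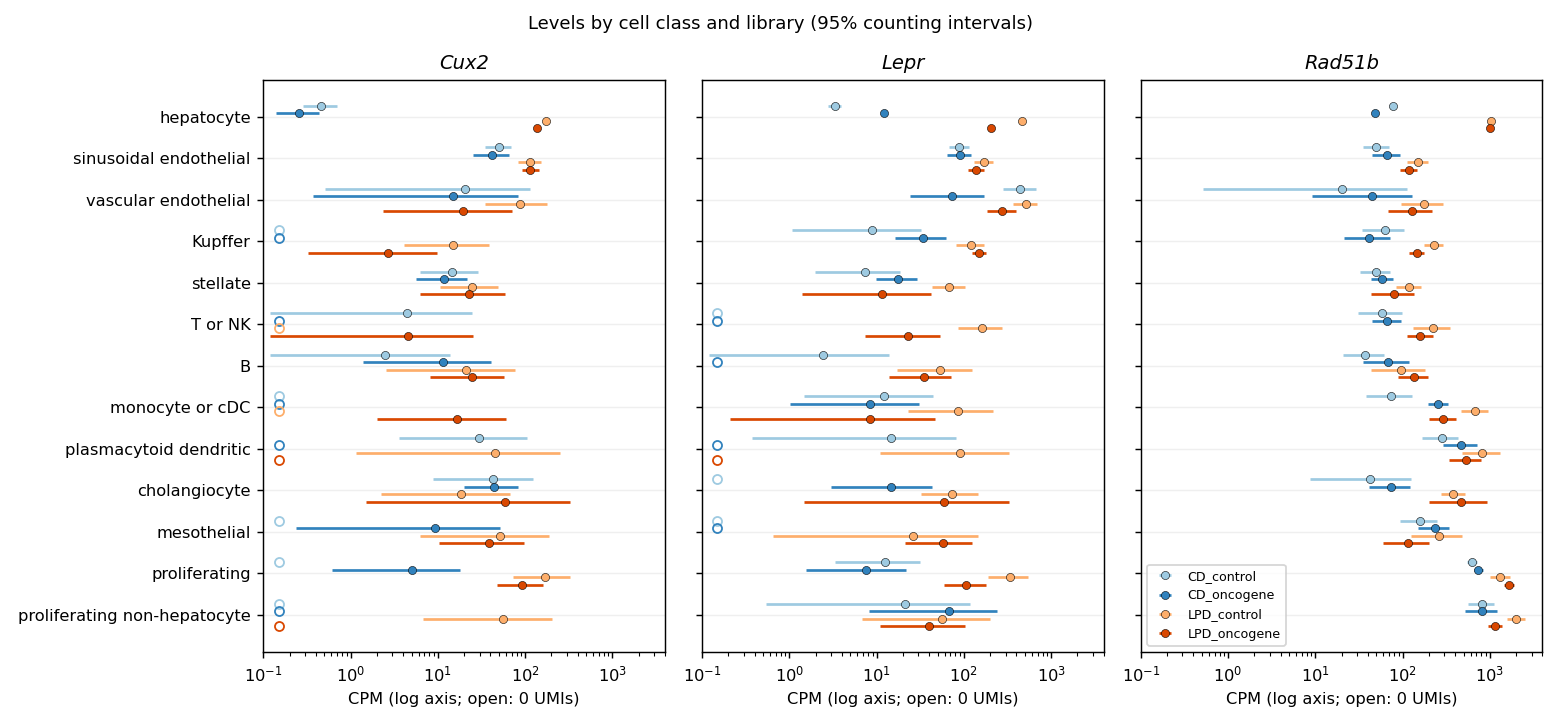
CPM (log axis) of Cux2, Lepr and Rad51b in each cell class and library with 95% counting intervals; open circles at the left edge mark 0 UMIs. Cux2 and Lepr of CD hepatocytes lie left of CD sinusoidal endothelial nuclei (0.455 and 0.255 against 49.8 and 41.4 CPM for Cux2), and Rad51b is far to the right in both proliferating classes.

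Genes of the pathways around the 5 members were read from lists that hold none of the members, as counts at least 2-fold higher or lower in all 4 pairs beside 2.68% and 1.39% of all genes. The median of the change nearest to 0 over the 4 pairs, set to 0 where pairs differ in sign, was 1.18 on the log2 scale for the female-biased list, -0.19 for the male-biased list, 0.71 for amino acid deprivation and 0.14 for the clock, between 0 and 0.07 for the other lists with measured genes, and 0 over all genes. Since Cux2 is a sex-biased liver gene, the sex-biased lists come first. Of 18 male-biased genes, 16 were measured and 6 (37.5%) were lower on LPD: Selenbp2, Cyp4a12b, Cyp4a12a, Nudt7, Cyp7b1 and Hsd3b5. The steroid hydroxylase gene Cyp7b1 was at 2762 and 1286 CPM on CD and at 415 and 537 CPM on LPD. Selenbp2 was at 367 and 573 CPM on CD and 12.2 and 26.8 CPM on LPD, and the fatty acid hydroxylase Cyp4a12a at 169 and 101 CPM on CD and 8.26 and 17.3 CPM on LPD. None of the male-biased genes was 2-fold higher in all pairs, and the 6 lower ones were lower with TMM scaling too. Of 18 female-biased genes only 4 were measured, and 2 were higher: Trim24, a transcriptional co-regulator, at 47.2, 32.7, 248 and 327 CPM in library order, and Acot3, an acyl-CoA thioesterase, at 0.846, 1.5, 21.3 and 21.8 CPM. All measured female-biased genes but Trim24, Acot3 among them, reached 20 CPM in LPD libraries alone, so the filter bears on that list's median. The other 14 female-biased genes did not reach 20 CPM with 100 UMIs, among them the cytochromes Cyp2b9, Cyp2b13 and Cyp2a4.

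Growth hormone sets the sex bias of Cux2, and none of its 12 signalling genes was 2-fold higher or lower in all 4 pairs. The receptor Ghr was at 10533 and 8042 CPM on CD and at 6530.1 and 4568 CPM on LPD. Igf1, a main target, was at 1708, 874, 793 and 2257 CPM, and Prlr, the prolactin receptor, at 617, 241, 692 and 1002 CPM, so that Igf1 did not order by diet while Prlr was higher in both LPD libraries, by 0.17 on the log2 scale in the nearest pair. Of the 6 other CUX, ONECUT and SATB genes of its class, 4 were measured and none passed the fold in either direction.

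Around Lepr, 8 of 12 genes of leptin receptor signalling were measured and none passed the fold. Stat3, its main transcription factor, was at 168, 204, 236 and 360.4 CPM, and the insulin receptor substrates Irs1 and Irs2 were at 153, 153, 212 and 113 CPM and at 22.1, 190.2, 119.7 and 128 CPM. Leprot did not reach the minimum level, with 7.03 and 6.66 CPM on CD and 15.5 and 14.8 CPM on LPD. No other gene of the RGS family reached the minimum, and the highest, Rgs7, Rgs3 and Rgs12, had at most 16.3, 11.2 and 8.26 CPM in any library. None of the 7 measured of 12 G protein alpha subunits passed the fold. Rgs16 was thus the only RGS gene at a level that could be compared in these hepatocytes.

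Around Rad51b, 5 of 18 genes of homologous recombination were measured and none passed the fold. Rad50, which senses broken ends, was at 43.2, 40.3, 68.8 and 55.8 CPM. Rad51d was at 28.7, 33.0, 36.1 and 34.4 CPM, and Brca2 at 16.1, 15.8, 21.2 and 17 CPM. Around Klf10, 6 of 16 KLF genes were measured and Klf13 was higher, at 47.4 and 37.2 CPM on CD and 211 and 226 CPM on LPD. Klf12, the highest of the family, was at 1485, 1602, 1034 and 972 CPM, and Klf9 at 212, 269.6, 221 and 375 CPM. Of the TGF-β response list, 9 of 17 were measured and none passed the fold, although with TMM scaling 1 of them, Id3, was lower.

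Lists on nutrients and on the clock were read because Rgs16 and Klf10 respond to both. Of the 18 amino acid deprivation genes, 8 were measured and 3 (37.5%) were higher: Fgf21, the hormone of protein restriction, at 0.716 and 0.292 CPM on CD and 34.5 and 126 CPM on LPD, with Sesn2 at 4.53, 5.86, 20.8 and 20.2 CPM and Slc3a2 at 7.44, 7.52, 22.5 and 34.1 CPM. All 3 passed the filter through the LPD libraries alone, as did some other measured genes, so the filter bears on this list's median too. With TMM scaling Slc3a2 was no longer 2-fold higher. Of 17 measured carbohydrate response genes, 1 was higher, again Fgf21. Since LPD held less protein and more carbohydrate, the parts of these nutrients cannot be told apart here.

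Clock genes moved with diet and also between the CD libraries. Of 16 measured clock genes, Per1 and Hlf were higher and Npas2 was lower, and with TMM scaling Hlf was no longer 2-fold higher while Arntl was lower. Per1 was at 1.52 and 2.37 CPM on CD and at 54.2 and 41.4 CPM on LPD. Arntl, the positive arm of the clock, was at 64.9 and 212 CPM on CD and 30.5 and 31.3 CPM on LPD, and Npas2, its partner, at 20.3 and 150 CPM on CD and 3.23 and 6.38 CPM on LPD. Dbp, an output of the clock, was at 15.8, 0.401, 70.7 and 23.2 CPM in library order. The order of Dbp over the 4 libraries was that of Rgs16, and CD oncogene was the lowest library for both. The share of all genes with this order was not counted. The part of clock phase in the levels of Rgs16, Klf10 or the other members was not tested. The remaining lists gave 0 of 12 measured pericentral genes past the fold and 1 of 12 periportal genes, Hsd17b13, at 183, 178, 473 and 376 CPM, which TMM scaling took below 2-fold.

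Patterns were also compared across all genes over 32 points, the 4 libraries times 3 hepatocyte zones and 5 other cell classes, which share libraries and depth. The genes most like Rgs16 by Pearson's r of log2(CPM + 5) were Ubr2 (0.902), Herpud1 (0.902) and the member Rad51b (0.901). Those most like Rad51b were Rgs16 (0.901), Lpin1 (0.896) and Cyp39a1 (0.890). Lepr was nearest to 2900089D17Rik (0.842), Rgs16 (0.820) and Slc29a1 (0.817), and Klf10 to Cflar (0.838), Slc29a1 (0.812) and Lepr (0.809). For Cux2 the nearest were Nipsnap2 (0.801), Stx5a (0.798) and Mtss1 (0.793), none of them a member. Among the 10 pairs of members r ran from 0.641 for Cux2 and Klf10 to 0.901 for Rgs16 and Rad51b. These values describe likeness over shared libraries and carry no test.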

How the data were processed

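Nuclei from 4 mouse livers or pools, 1 library per group, were sequenced by droplet single-nucleus RNA-seq. The authors deposited raw UMI counts per gene and barcode, made with Cell Ranger 9.0.1 per the file headers, on mm10 with the human c-MET and CTNNB1 sequences added. Seurat 5 is named in the submitters' processing notes, and whether intron reads were counted is not given in the sources used here. From these counts, nuclei with 200 to 7000 genes and at most 21% mitochondrial UMIs were kept, a filter modelled on the study's. They were clustered (5000 variable genes, 50 principal components of which 23 were used, 20 neighbours, resolution 0.4, then 1 for cells other than hepatocytes) with Python 3.11.15, scikit-learn 1.9.0 and python-igraph 0.11.9. Clusters were named from fixed markers, so class sizes rest on rebuilt names. No doublet caller was run. Clusters with markers of 2 unrelated classes besides hepatocytes were set aside as doublets where their hepatocyte marker level was 75% of the level over all nuclei or more, or where every marker of the second class was raised, and a shallow hepatocyte cluster stayed unnamed and was not used.

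Counts were summed per library and class and divided by the mouse-gene total (CPM). Intervals are exact Poisson for sums and exact binomial (Clopper-Pearson) for shares, and 0 UMIs were given a limit of 3 counts. For shares and co-detection each nucleus was thinned to 1000 UMIs by 1 random draw, and shallower nuclei were left out. Across genes, a call was a change of at least 2-fold in the same direction in all 4 LPD over CD pairs after 5 CPM was added, among genes with at least 20 CPM in 1 library and at least 100 hepatocyte UMIs. These pairs share libraries. No test was run, since each group is 1 library and the diet contrast over all 4 chose the members. Tested on simulated data for the LPD over CD comparison in 7243 genes, the rule called 67 of 67 genes changed 4-fold, 66 of 66 changed 8-fold, 0 of 67 changed exactly 2-fold and 0 of 7043 unchanged genes. With 1 library per group the spread between mice is unknown, so these counts are no rate of false calls in the livers. TMM factors came from edgeR 4.0.16 in R 4.3.3 and served as an alternative scaling only.

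The 5 members, the gene lists and the markers were chosen with earlier results of these data known. Named genes are the members, up to 6 genes of each list past the fold, the 3 with the highest CPM in each of the growth hormone, leptin, RGS, KLF and recombination lists, and for each member the 3 genes with the most similar pattern. Other genes given with values (Leprot, Arntl, Dbp, Id3, Cyp2b9, Cyp2b13, Cyp2a4 and the marker and sex-check genes) were named after their values were seen. Promoter windows come from RefSeq, GRCm38.p6.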

Additional observations from a re-analysis of the deposited data

Results flagged for a closer look

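The following 3 differences stood out because their sign on 1 diet was opposite to that on the other. None of them was tested, since each group is 1 library. Lepr was 1.87 higher on the log2 scale in CD oncogene than in CD control and 1.20 lower (a ratio of -1.20) in LPD oncogene than in LPD control, a difference between the diets of -3.07. For Klf10 the CD ratio was -0.93 and the LPD ratio, near no change, was 0.16, a difference of 1.09. Both directions on CD rest on labels that the transgene UMIs of those libraries, 100 in CD control and 0 in CD oncogene, go against. The central over portal ratio of Rad51b was 1.26 in CD control, 1.06 in CD oncogene, -2.30 in LPD control and -1.51 in LPD oncogene, a difference of their means of -3.07, and it does not depend on the injection labels. The depth per nucleus also differed between the diets, and its part in this slope was not tested beyond thinning, which left the direction in place in all 4 libraries.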

How the results depend on the processing

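Each value has 1 library behind it, so moves are judged against counting error alone. The smallest LPD over CD ratio (log2) of all 5 members stayed above 0 under all 8 alternatives, as selection on it all but ensures. With 5 CPM added it was 4.69 for Cux2, 4.51 for Rgs16, 3.61 for Lepr, 3.59 for Rad51b and 1.97 for Klf10. Over all nuclei it was 6.28 for Cux2, 3.86 for Lepr and 3.47 for Rad51b. Without hepatocyte nuclei holding 2 or more UMIs of other classes' markers it was 7.54 for Cux2 and 3.74 for Rad51b. At no more than 1% mitochondrial UMIs it was 6.20 for Rgs16, 3.95 for Lepr, 3.52 for Rad51b and 2.48 for Klf10. With TMM it was 3.81, 3.54 and 2.03 for Lepr, Rad51b and Klf10. The mean CPM of nuclei gave 4.22 for Lepr and 3.81 for Rad51b, thinning gave 4.32 and 3.75, and at least 500 genes with at most 5% mitochondrial UMIs gave 3.49 for Rad51b and 2.40 for Klf10. The zone slope of Lepr in CD oncogene turned to -0.049 when a fixed score of 0 split the nuclei. Of the other 16 slopes, 10 moved beyond counting error with that score, among them Lepr in LPD control to -1.15 and Klf10 in LPD control to -1.46, and the order of Cux2 (-0.83) and Rgs16 (-0.52) in LPD control turned. With thinning 5 of 15 slopes moved and none reversed. The cause was not tested for any of these. Co-detection ratios near 1 changed side. At 2000 UMIs Cux2 and Lepr were at 1.03 (LPD control) and 1.07 (LPD oncogene) and Cux2 and Klf10 at 1.00 (LPD oncogene). Second random draws were added after seeing the data, when a change of the random seed was found to move these ratios. At 1000 UMIs the second draw put Cux2 and Lepr at 1.07 and 1.08 and Cux2 and Rad51b at 0.95 (LPD oncogene), and at 2000 UMIs it put Cux2 and Lepr at 1.02 and 1.11. Of 20 pair ratios, 16, 16 and 17 kept their side and stayed within their interval in these 3 runs, so ratios this close to 1 give no order of the pairs. The 194 genes at least 2-fold higher became 105 with TMM, which still held all 5 members. Leaving out 1 library in turn, an alternative chosen after seeing the data that leaves fewer pairs to pass, gave 300 to 377 genes (377 without CD control, 322 without CD oncogene, 336 without LPD control and 300 without LPD oncogene). No paired analysis was possible because the results come from no test. A fit of diet blocked by injection label over the 4 libraries was not run, since that contrast chose the members.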
